A study of Mus musculus with 4 samples.

Results

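Carbonic anhydrases are zinc enzymes that turn carbon dioxide and water into bicarbonate and a proton, and back. The transcripts of 7 of them, *Car1*, *Car2*, *Car4*, *Car8*, *Car9*, *Car12* and *Car13*, were followed in mouse colonoids with and without butyrate. The genes were chosen by symbol with results of these libraries in view, since *Car1* had been selected on its opposite direction at 48 h and 72 h, and the values of that contrast are therefore given as a description. They are 7 of 16 carbonic anhydrase genes among the 36144 gene names of the count table, and all 7 are among the 13979 names that exceeded 10 counts in 2 or more libraries.

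Colonoids are 3-dimensional cultures grown from colonic crypts, here derived from the colon of a wild type male mouse aged 24 weeks per the labels, although the study's own legend names 1 Hes1-GFP reporter mouse as the donor. The methods describe the use of the proximal colon. At passage 3 the cultures were either left untreated (control) or given 2 mM sodium butyrate (treated), and RNA was sequenced after 48 h and 72 h, named day 2 and day 3 in the labels, which give hours for the treated libraries alone. All 4 cultures shared a medium with EGF, noggin, R-spondin, the GSK3 inhibitor CHIR99021 and the ROCK inhibitor Y-27632. Each of the 4 conditions has 1 library of 20790225 to 24207840 counts, so no value can be set against replicate error, no test was run, and a condition cannot be told apart from its culture. Intervals are 95% intervals for counting error only. Normalised counts are counts divided by DESeq2 size factors, and log2 fold changes were taken with a pseudocount of 1.

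In the colon the carbonic anhydrases serve absorption and secretion. Surface colonocytes exchange luminal chloride for bicarbonate and luminal sodium for protons, and the cytosolic enzymes supply both ions. *Car1* and *Car2* encode abundant cytosolic enzymes and *Car13* a further cytosolic form, *Car4* an enzyme held to the apical membrane by a lipid anchor, and *Car9* and *Car12* membrane-spanning enzymes whose catalytic domain faces outwards. *Car8* encodes a related protein without catalytic activity that binds the inositol trisphosphate receptor. *Car1* and *Car4* are known as genes of mature colonocytes, and *Car9* as a target of the hypoxia-inducible factors.

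The cultures carried markers of intestinal epithelium. *Cdx1* and *Cdx2*, which are transcription factors of intestinal epithelium, lay between 2922.6 and 5676.0 normalised counts in every library. Of 5 small intestinal genes, *Apoa4*, *Fabp6* and *Lct* had at most 11 counts in a library. The other two were detected, the disaccharidase gene *Sis* with between 422 and 2357 counts and the transcription factor gene *Gata4* with between 23 and 155. *Gata4* was higher with butyrate at both times, with log2 ratios of 1.87 and 1.46, whereas those of *Sis* were 0.83 at 48 h and −1.99 at 72 h. *Car1* and *Car2* are also among the main proteins of red blood cells. Of 8 erythroid genes, the 2 beta-globin genes *Hbb-bs* and *Hbb-bt*, *Hba-a2* and the erythroid haem synthesis gene *Alas2* had no count in any library, *Hba-a1* had 3 counts in the butyrate library at 48 h and none elsewhere, and the highest count of the list was 7. Summed over the 8 genes, the normalised counts were 9.2 and 7.9 in control cultures after 48 h and 72 h, and 10.0 and 14.0 in treated ones. RNA came from whole cultures, in which fewer cells of a type and less RNA per cell cannot be told apart.

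**Figure D1:**
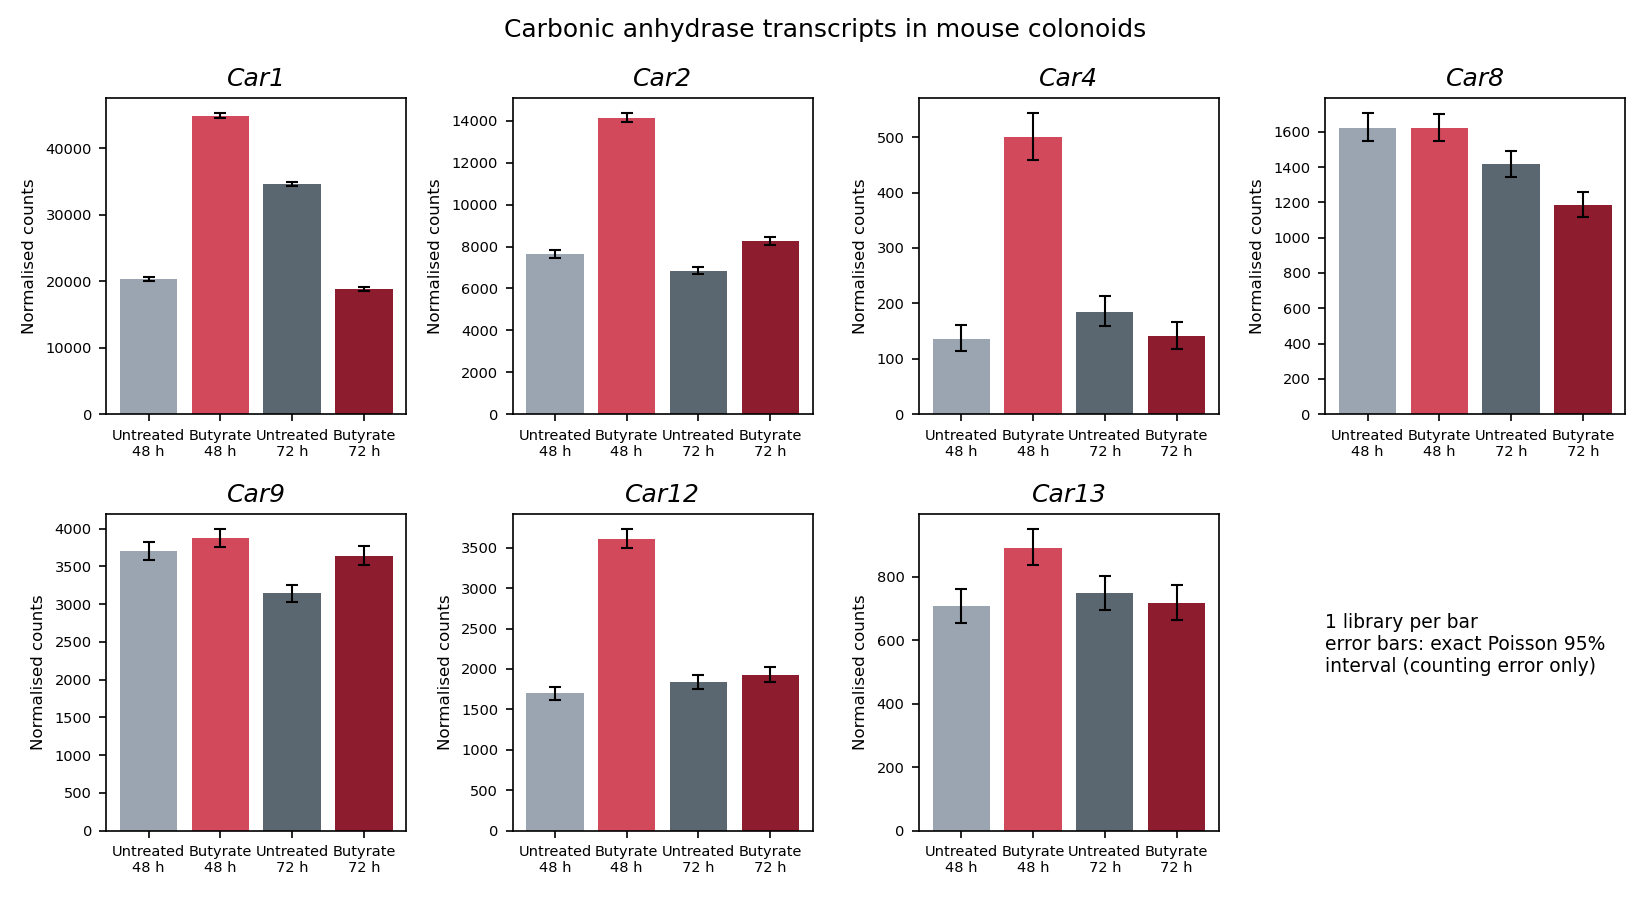
Normalised counts (y axis, linear, from 0) of the 7 carbonic anhydrases in the 4 libraries (x axis). Each bar is 1 library, and error bars are exact Poisson 95% intervals of the count. *Car1*, *Car2*, *Car4*, *Car12* and *Car13* were each highest in the butyrate library at 48 h, as was *Car9* by a small margin (3875.0 against 3701.5 untreated), and *Car1* alone of the 7 was lower with butyrate at 72 h by more than 1.5-fold.

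With butyrate at 48 h, 4 of the 7 transcripts exceeded their control level 1.5-fold or more, namely *Car4*, *Car1*, *Car12* and *Car2*, and 0 were lower by as much. Among all 13979 genes, 13.1% were at least 1.5-fold higher and 8.90% at least 1.5-fold lower. The median log2 fold change of the 7 was 0.89, against −0.01 over all genes. At 72 h, 0 of the 7 were higher by that factor and 1, *Car1*, was lower, beside 9.50% and 8.53% of all genes. The median of the 7 was then −0.06, against 0.00 over all genes. Both contrasts entered the choice of the genes, so these counts describe the 7 and do not set them apart.

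*Car1* was the most abundant of them. It is encoded on the minus strand of chromosome 3, from 14766216 to 14808368 in the GRCm38 build, and the processed pseudogene *Gm16399* inside its span had no count. Control cultures held 19941 counts of it after 48 h and 35077 after 72 h, whereas treated cultures held 49510 and then 17453. After scaling these became 20390.2 and 34634.5 normalised counts in control, and 44919.6 and 18849.9 in treated cultures. The butyrate library was thus the highest of the 4 at 48 h and the lowest at 72 h. Treated over control, the log2 ratio was 1.14 (1.12 to 1.16) at the earlier time, or 2.20-fold higher, and −0.88 (−0.90 to −0.85) at the later one, or 1.84-fold lower.

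The time course of *Car1* ran in opposite directions in the 2 arms. In untreated colonoids it was 1.70-fold higher at 72 h than at 48 h (log2 0.76, 0.74 to 0.79), and with butyrate 2.38-fold lower (log2 −1.25, −1.28 to −1.23). The change with butyrate at 72 h minus that at 48 h was −2.02 (−2.05 to −1.98) on the log2 scale. A change of 1.5-fold or more upwards at 48 h and downwards at 72 h was found in 1.37% of all genes, and *Car1* was the 1 of the 7 among them. By any amount, 3 of the 7 (*Car1*, *Car4* and *Car13*) and 18.4% of all genes were higher at 48 h and lower at 72 h.

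*Car2*, on the plus strand of the same chromosome from 14886273 to 14900770, followed *Car1* at 48 h but not at 72 h. Its control counts were 7477 after 48 h and 6944 after 72 h, and its treated counts 15591 and 7646. The butyrate library at 48 h stood above the other 3, which lay between 6856.4 and 8258.0 normalised counts. Its log2 ratio was 0.89 (0.85 to 0.93) and then 0.27 (0.22 to 0.32), so that *Car2* was higher with butyrate at both times. It was lower at 72 h than at 48 h in both arms, with log2 ratios over time of −0.16 (−0.20 to −0.11) untreated and −0.78 (−0.82 to −0.74) with butyrate.

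The ratio of *Car1* to *Car2* does not depend on how libraries are scaled. In control cultures *Car1* had 2.67 counts per count of *Car2* (2.60 to 2.74) after 48 h and 5.05 (4.92 to 5.18) after 72 h. In treated cultures the ratio was 3.18 (3.12 to 3.23) and then 2.28 (2.22 to 2.35). The untreated library at 72 h therefore held the highest share of *Car1* relative to *Car2*, and the butyrate library at 72 h the lowest. Per kb of exon the ratios were 5.18 and 9.80 in control, and 6.16 and 4.43 in treated cultures.

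*Car13*, a lower-expressed cytosolic enzyme, lies on the plus strand from 14641727 to 14663002. Control cultures held 691 counts after 48 h and 758 after 72 h, and treated cultures 983 and 665. Its log2 ratio was 0.34 (0.19 to 0.48), followed by −0.06 (−0.21 to 0.09), and at the later time no difference was detectable. *Car13*, *Car1*, *Car3* and *Car2* are neighbours within 259.0 kb of chromosome 3. *Car3*, best known from muscle, lies between *Car1* and *Car2* (14863512 to 14872523) and was nearly silent, with 6 and 2 counts in control and 17 and 0 in treated cultures after 48 h and 72 h. The 3 expressed genes of the cluster thus shared a maximum in the butyrate library at 48 h, whereas at 72 h *Car1* was lower with butyrate, *Car2* higher and *Car13* within counting error.

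**Figure D2:**
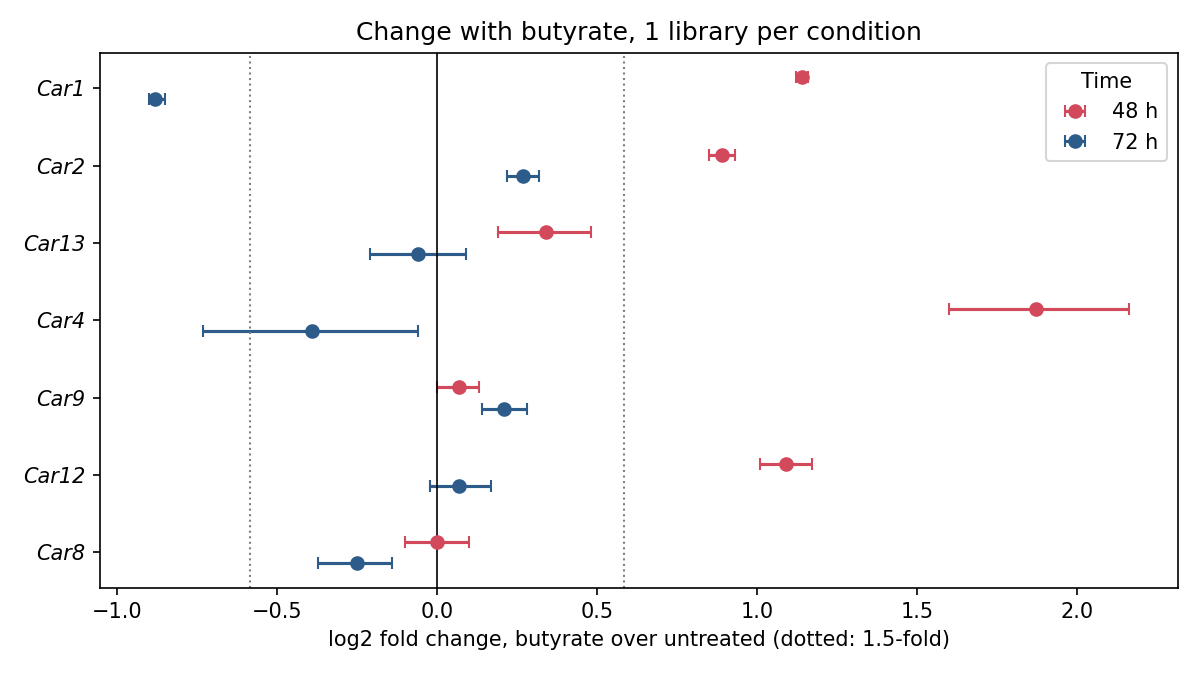
Log2 fold change of butyrate over untreated colonoids (x axis) for each carbonic anhydrase (y axis) at 48 h (red) and 72 h (blue), from 1 library per condition. Bars are exact 95% intervals for counting error, the solid line marks no change and the dotted lines 1.5-fold; *Car4*, *Car1*, *Car12* and *Car2* lie beyond 1.5-fold at 48 h, and *Car1* lies beyond it on the other side at 72 h.

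Promoter sequences are shown for the 3 membrane-bound enzymes, which differed from each other in their values with butyrate. They come from RefSeq on GRCm38.p6, each with 250 bases before and 50 after an annotated start site, and 3 of the 7 genes matched an entry; *Car1*, *Car2*, *Car8* and *Car13* did not. All are on the plus strand, at chr11:84957504-84957803 for *Car4*, chr4:43506776-43507075 for *Car9* and chr9:66713436-66713735 for *Car12*. Capitals mark matches, on either strand, to the motifs ACGTG and GCGTG (cores bound by hypoxia-inducible factors), GGGCGG (the GC box), TATAAA (the TATA box) and TTTATG (a core of the caudal factors Cdx1 and Cdx2).
Car4: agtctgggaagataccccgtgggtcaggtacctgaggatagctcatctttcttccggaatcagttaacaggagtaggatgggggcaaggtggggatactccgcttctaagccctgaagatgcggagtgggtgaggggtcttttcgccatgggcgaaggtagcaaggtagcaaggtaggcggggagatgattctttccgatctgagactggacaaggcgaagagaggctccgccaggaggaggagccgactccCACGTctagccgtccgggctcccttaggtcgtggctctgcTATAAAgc
Car9: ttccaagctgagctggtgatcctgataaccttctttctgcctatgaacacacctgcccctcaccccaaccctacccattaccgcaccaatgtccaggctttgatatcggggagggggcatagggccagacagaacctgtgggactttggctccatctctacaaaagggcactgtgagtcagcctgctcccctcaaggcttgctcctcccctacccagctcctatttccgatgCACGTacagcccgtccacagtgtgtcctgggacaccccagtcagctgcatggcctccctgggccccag
Car12: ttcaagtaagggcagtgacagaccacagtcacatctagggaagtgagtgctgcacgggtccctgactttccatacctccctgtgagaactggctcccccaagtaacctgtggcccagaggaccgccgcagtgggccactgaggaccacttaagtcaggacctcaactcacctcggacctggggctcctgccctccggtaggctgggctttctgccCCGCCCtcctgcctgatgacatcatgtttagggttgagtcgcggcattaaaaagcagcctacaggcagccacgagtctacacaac

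*Car9* held ACGTG on the opposite strand, from position −18 relative to the start site, and *Car4* held it on the opposite strand from position 3. Of 32851 promoter windows of this length, 19.6% held ACGTG. *Car4* also held TATAAA, from position 43 and so after the start site that RefSeq gives, as 13.6% of windows did at any position. The *Car12* window held GGGCGG on the opposite strand from position −35, a motif found in 35.7% of windows, and no match to ACGTG. None of the 3 held GCGTG or TTTATG, which were found in 32.4% and 11.9% of windows. These are matches of letters, and binding was not measured.

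Among the membrane-bound enzymes, *Car4* had the largest ratio of the 7 genes at 48 h and the lowest counts. It is on the plus strand of chromosome 11, from 84957786 to 84966044. In control cultures it had 133 counts after 48 h and 187 after 72 h, and in treated ones 551 and 130. The 3 libraries other than butyrate at 48 h lay between 136.0 and 184.6 normalised counts, and that library at 499.9. Its log2 ratio at 48 h was 1.87 (1.60 to 2.16), or 3.66-fold higher, and 325 of the 13979 genes had a larger one. At 72 h it was −0.39 (−0.73 to −0.06), or 1.31-fold lower. The difference between the 2 times was −2.26 (−2.69 to −1.84), and its interval overlapped that of *Car1*.

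*Car12*, on the plus strand of chromosome 9 from 66713686 to 66766845, was higher with butyrate at 48 h, and its interval at 72 h included 0. Its control counts were 1660 and 1859, and its treated counts 3983 and 1787, at the earlier and later time. The log2 ratio was 1.09 (1.01 to 1.17), or 2.13-fold higher, followed by 0.07 (−0.02 to 0.17). Again the butyrate library at 48 h stood above the other 3, which lay between 1697.4 and 1930.0 normalised counts.

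*Car9*, on the plus strand of chromosome 4 from 43506966 to 43513729, varied least among the 7 genes with butyrate at 48 h after *Car8*. Control cultures held 3620 counts after 48 h and 3184 after 72 h, and treated ones 4271 and 3375. The log2 ratios were 0.07 (0.00 to 0.13) and 0.21 (0.14 to 0.28). The 4 libraries spanned 3143.8 to 3875.0 normalised counts, and the untreated library at 72 h was the lowest. *Car4*, whose promoter window also holds ACGTG, had log2 ratios of 1.87 at 48 h and −0.39 at 72 h. Whether the motif bears on the values of either gene was not tested.

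*Car8*, on the minus strand of chromosome 4 from 8143362 to 8239041, had 1588 control counts after 48 h and 1433 after 72 h, against 1788 and 1099 in treated cultures. Normalised, the control levels were 1623.8 and 1414.9, and the treated levels 1622.2 and 1187.0. Its log2 ratio at 72 h was −0.25 (−0.37 to −0.14). At 48 h the interval, from −0.10 to 0.10, included 0, and the sign of the change turned with total count scaling. For this gene without catalytic activity, no difference was detectable at 48 h, and the treated library at 72 h was the lowest.

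Between 48 h and 72 h, untreated colonoids had 1 of the 7 genes at least 1.5-fold higher, *Car1*, and 0 lower, beside 6.82% and 5.17% of all genes. With butyrate, 0 were higher and 4 were lower at 72 h, beside 9.66% and 11.9% of all genes. These 4 were *Car4* (log2 −1.82, −2.12 to −1.55), *Car1*, *Car12* (−0.90, −0.99 to −0.82) and *Car2*, the same 4 that were higher with butyrate at 48 h. Both counts use the butyrate library at 48 h and are therefore not separate observations.

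Levels between genes were compared as normalised counts per kb of exon. Averaged over the 4 libraries, *Car1* stood at 23796.9 and ranked 21 among 13909 genes with an annotated length. *Car2* followed at 3809.4 (rank 212) and *Car9* at 1558.8 (rank 577), and the ranges of these 3 genes over the libraries did not overlap. *Car8* (379.4), *Car13* (333.3) and *Car12* (298.7) had overlapping ranges, so their order is not resolved. With the longest annotated transcript in place of all exons, *Car12* stood at 610.6 and above *Car8* and *Car13*. *Car4* was the lowest at 122.2 (rank 6831), between 69.2 and 254.3, a range that overlapped that of *Car12*.

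**Figure D3:**
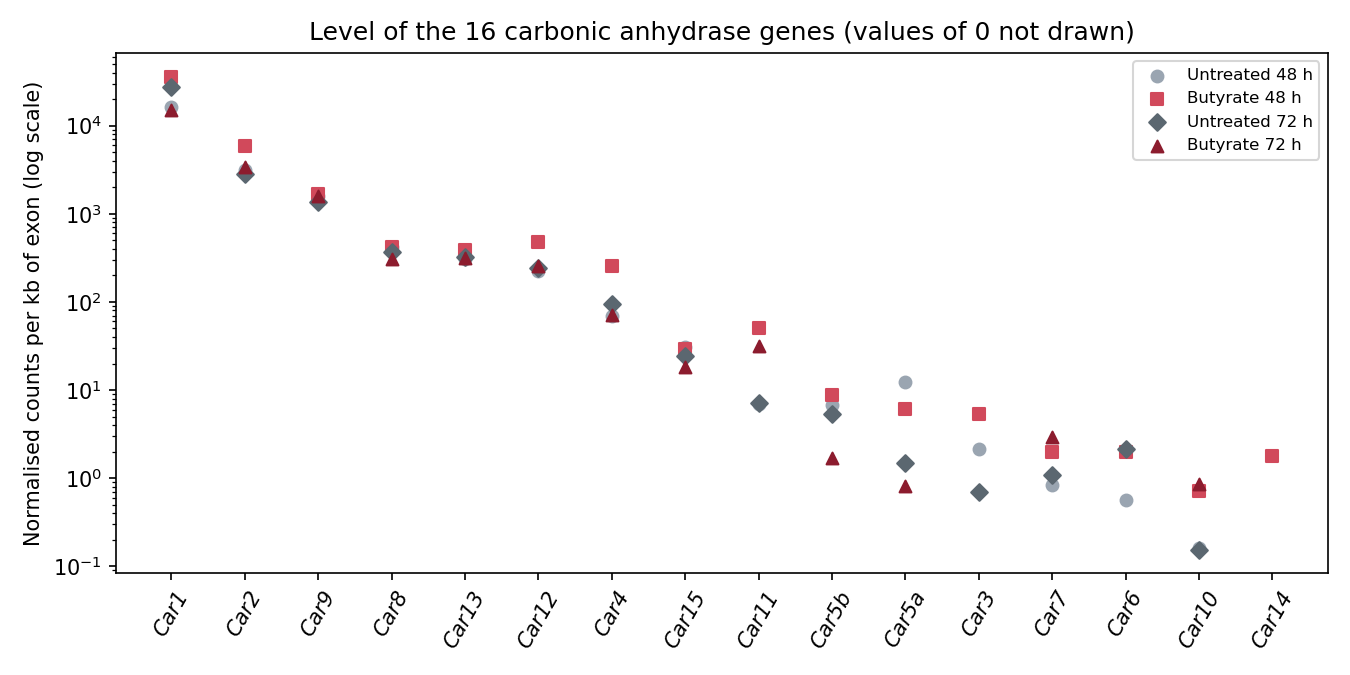
Normalised counts per kb of exon (y axis, log scale) of the 16 carbonic anhydrase genes (x axis), ordered by their mean, with 1 symbol for each library. *Car1* lies above all others in every library, and values of 0 are not drawn.

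All 16 genes together took 0.163% of the control counts after 48 h and 0.210% after 72 h, and 0.318% and 0.155% of the treated counts. *Car1* made up most of this pool. Per kb it was 73.7% and then 84.1% of the family in control, and 79.7% and then 71.6% in treated cultures.

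The remaining 9 genes of the family contributed at most 0.274% of it per kb in any library, and 3 of them passed the count filter. *Car11*, a catalytically inactive relative of *Car8*, had 13 and 14 counts in control cultures and 107 and 57 in treated ones, at the earlier and later time. It was higher with butyrate at both, with log2 ratios of 2.78 (2.03 to 3.82) and 2.08 (1.29 to 3.11). Both ratios were above those of every one of the 7 genes at the same time, although at 48 h the interval overlapped that of *Car4* (1.60 to 2.16). *Car15*, a lipid-anchored enzyme of the mouse, had between 32 and 61 counts and both of its intervals included 0. The mitochondrial enzyme *Car5b* went from 42 to 34 counts in control and from 62 to 10 in treated cultures, with log2 ratios of 0.38 (−0.20 to 0.99) and −1.55 (−2.82 to −0.59). Of the 6 that did not pass, *Car5a*, *Car6*, *Car7*, *Car10* and *Car3* had at most 17 counts. *Car14*, a membrane-spanning enzyme, had 5 counts with butyrate at 48 h and 0 in the other 3 libraries, which allows up to 0.139, 0.127 and 0.144 CPM in untreated colonoids at 48 h and 72 h and with butyrate at 72 h.

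For every one of the 7 genes, the genes with the most similar profile were sought among 10789 genes with a mean of at least 100 normalised counts, by the Euclidean distance between centred log2 values over the 4 libraries. Nearest to *Car1* was *Tph1*, which encodes the enzyme of serotonin synthesis in enterochromaffin cells, at a distance of 0.137. It went from 83 to 162 counts in control and from 220 to 71 in treated cultures. It was followed by the carboxylesterase gene *Ces1f* (0.278), the scramblase gene *Plscr4* (0.301), the goblet cell peptide gene *Tff3* (0.310) and the mitochondrial gene *Lactb* (0.312). *Tff3* was the most abundant of these 5, going from 3523 to 4897 counts in control and from 6776 to 2861 in treated cultures. With 4 libraries, such likeness is a description of these cultures.

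**Figure D4:**
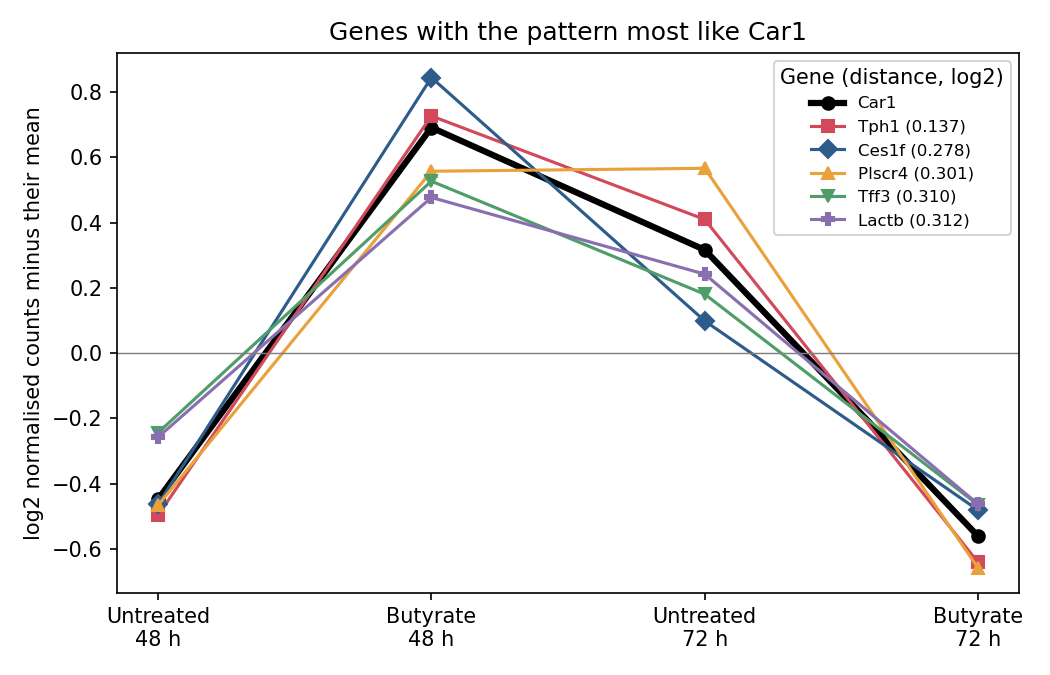
Log2 normalised counts minus their mean over the 4 libraries (y axis) for *Car1* (black) and the 5 genes with the smallest distance to it, given in the legend, in each library (x axis). Points are single libraries and lines join the points of a gene. All 6 genes were higher with butyrate at 48 h and lower with it at 72 h, which follows from choosing the 5 by likeness to *Car1*.

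The nearest gene to every other carbonic anhydrase lay closer than *Tph1* did to *Car1*. *Car4* was nearest to *Amn*, the gene of the membrane protein amnionless (0.056), which went from 70 to 102 counts in control and from 295 to 72 in treated cultures, and less near to *Tm4sf5* (0.343) and *Xlr3a* (0.346). *Car2* was nearest to *Aldh1a3*, which encodes a retinaldehyde dehydrogenase (0.060), and *Car12* to *Mfsd12* (0.081). For *Car8*, *Car9* and *Car13* the nearest genes were *Utp11* (0.032), *Zfp945* (0.016) and *Mmachc* (0.015).

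Of 17 transporters and associated proteins that move bicarbonate, protons or short-chain fatty acids, 16 passed the count filter. At 48 h, butyrate left 4 of them higher by 1.5-fold or more and 1 lower, beside 13.1% and 8.90% of all genes, with a median log2 fold change of 0.23. At 72 h, 1 was higher and 1 lower, beside 9.50% and 8.53%, with a median of −0.10. The 1 lower at 48 h was *Atp12a*, on 12 counts untreated and 2 with butyrate. The 1 lower at 72 h was *Slc9a2*, with log2 ratios of 0.39 and −0.65. *Slc26a3*, the chloride-bicarbonate exchanger of surface colonocytes, went from 2983 to 4385 counts in control and from 8211 to 3498 in treated cultures. Its log2 ratios were 1.29 (1.23 to 1.35) and −0.20 (−0.26 to −0.13). The sodium-proton exchanger gene *Slc9a3* changed by 0.70 (0.61 to 0.80) and −0.39 (−0.50 to −0.28). Both were thus higher at 48 h and lower at 72 h, as *Car1* and *Car4* were, and so were 6 of the 16 in all, beside 18.4% of all genes. *Slc16a1*, whose product carries butyrate and lactate with protons, was instead higher at both times, by 0.79 (0.72 to 0.85) and 0.32 (0.25 to 0.39), as *Car2* was. *Slc4a8*, a sodium-dependent bicarbonate transporter gene, was higher by 2.26 (1.90 to 2.68) and 1.07 (0.70 to 1.47).

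**Figure D5:**
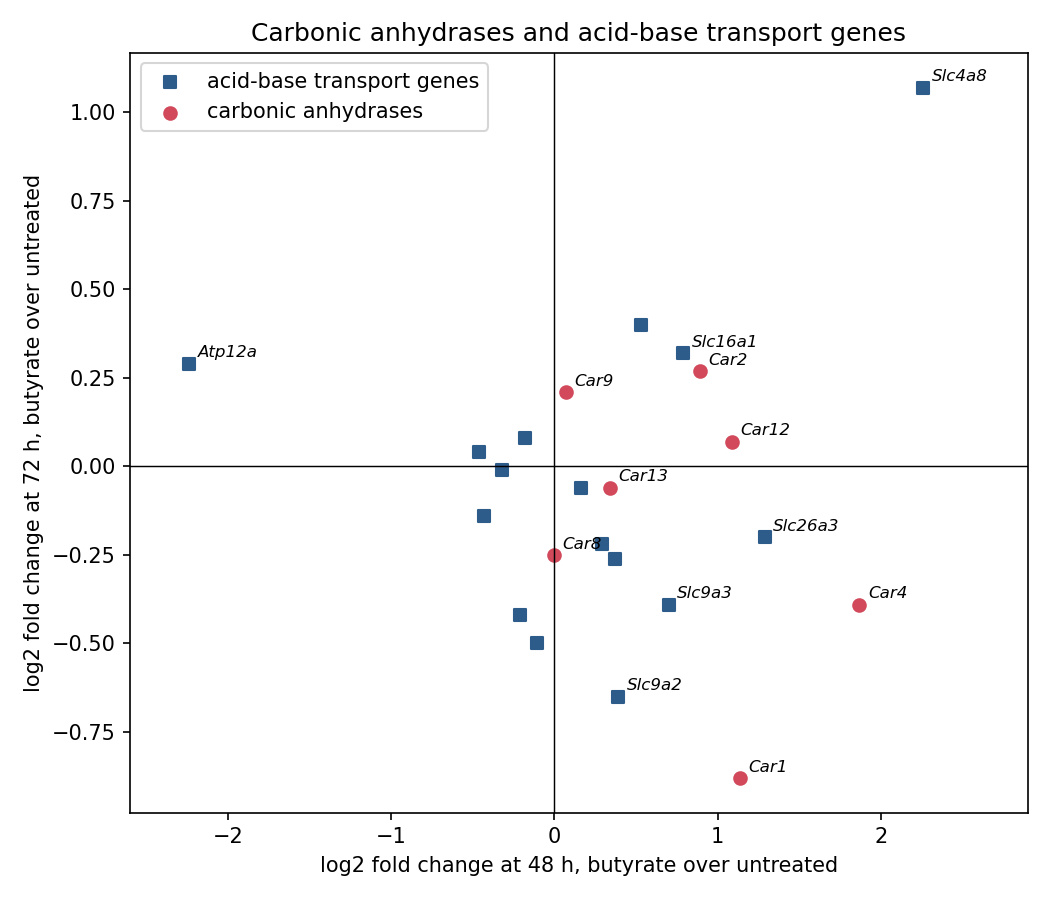
Log2 fold change with butyrate at 48 h (x axis) and at 72 h (y axis) of the 7 carbonic anhydrases (red circles) and 16 acid-base transport genes (blue squares), 1 library per condition. *Car1*, *Car4*, *Slc26a3*, *Slc9a2* and *Slc9a3* are among the genes at the lower right, higher at 48 h and lower at 72 h. *Car2* and *Slc16a1* are among those above the horizontal line. Transport genes are named where they changed at least 1.5-fold at a time.

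Since *Car1* and *Car4* mark colonocytes, the other genes of that cell type were read beside them. Of 12 colonocyte genes without carbonic anhydrases, 3 were higher and 3 lower by 1.5-fold or more in the treated culture after 48 h, beside 13.1% and 8.90% of all genes. After 72 h, 1 was higher and 4 lower, beside 9.50% and 8.53%. Their medians were 0.16 and −0.32. By any amount, 8 of the 12 were higher at 48 h and lower at 72 h, beside 18.4% of all genes, and 0 of the 12 were so by 1.5-fold at both times, beside 1.37%. *Slc26a3* is among the 8. So are the mucosal defence gene *Lypd8* (log2 ratios 0.75 and −0.38), the keratin gene *Krt20* (0.31 and −0.74) and the guanylin gene *Guca2a* (0.16 and −0.49), which were picked out after their values were seen. *Fabp2*, a fatty acid binding protein gene, was lower at both times, with log2 ratios of −0.91 and −1.21, and so was *Slc37a2*, with −1.24 and −1.94. *Ceacam20*, a microvillus gene, was higher at both, by 0.99 and 0.70. Genes of other epithelial cells also differed between these libraries, and the same shares of all genes apply to their counts. *Lgr5*, the receptor gene that marks crypt stem cells, had log2 ratios of −0.94 and then 0.79. Of the 5 stem cell genes, 0 were higher and 1 lower by 1.5-fold or more at 48 h (median −0.14), and 3 were higher and 0 lower at 72 h (median 0.62). The others named by rule were *Smoc2* (−0.31 and 0.70), *Axin2* (−0.14 and 0.62) and *Ascl2* (0.19 and 0.47), so that at 48 h the list did not share 1 sign. Of 9 goblet cell genes, 2 were higher and 1 lower by 1.5-fold or more at 48 h (median −0.01), and 1 was higher and 6 were lower at 72 h (median −0.80, beside 8.53% of all genes lower). Of these 9, 2 were changed by 1.5-fold in opposite directions as *Car1* was, namely *Tff3* (0.77 and −0.65) and *Clca1* (0.61 and −2.26). Also named by rule were *Fcgbp* (0.01 and −1.11), *Zg16* (−0.67 and −2.53) and *Reg4* (0.23 and 1.06), which were not. Of 6 enteroendocrine genes, 1 was higher and 0 were lower by 1.5-fold or more at 48 h, and 0 were higher and 6 lower at 72 h. Their medians were 0.05 and −0.92. Named by rule were *Chga* (0.07 and −1.04), *Chgb* (0.40 and −0.81), *Pyy* (0.04 and −1.45) and *Tph1* (1.22 and −1.05). *Tph1* was the 1 of the 6 with the opposite changes of *Car1*. The small intestinal gene *Sis* also had such changes, 0.83 and −1.99. The 4 tuft cell genes that passed the count filter were all lower by 1.5-fold or more at 72 h (median −1.32) and 0 of them at 48 h. The 6 proliferation genes had medians of 0.06 and 0.33. Summed normalised counts of the 12 colonocyte genes were 129516.2 and 148894.6 in control and 129023.8 and 102944.7 in treated cultures. The most abundant of them, *Ceacam1*, was lower at both times, with log2 ratios of −0.68 and −0.80. The sums of the 5 stem cell genes were 24705.2 and 18883.7 in control and 20123.5 and 29080.0 in treated cultures, and those of the 9 goblet cell genes were 115679.4 and 167461.4, and 94014.5 and 91456.3. Among genes of cells outside the epithelium, no count exceeded 48 for 6 immune genes or 13 for 7 stromal and muscle genes. The part of cell composition in the values of *Car1* and *Car4* was not tested.

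*Car9* was read beside 14 other genes of the hypoxia response. At 48 h, 1 of them was higher by 1.5-fold or more in the treated culture and 0 were lower, beside 13.1% and 8.90% of all genes, with a median of 0.14. At 72 h, 3 were higher and 0 lower, beside 9.50% and 8.53%, with a median of 0.42. The vasoactive peptide gene *Adm* changed by 0.15 (−0.13 to 0.43) at 48 h and 1.21 (0.84 to 1.60) at 72 h, and the mitophagy gene *Bnip3* by 0.32 and 0.97. *Egln3*, which encodes an oxygen-sensing prolyl hydroxylase, changed by 0.20 and 0.69. The gene past 1.5-fold at 48 h was *Ndrg1*, a stress-responsive gene, with 0.59 and then 0.43. The change at 72 h was above that at 48 h in 11 of the 14 genes and below it in *Ndrg1*, *Ldha* and *Slc2a1*. The share of all genes with this order was not computed, so the count does not set the list apart. The 5 stem cell and 6 proliferation genes all had it too, and 0 of the 12 colonocyte genes did. *Car9* stood at 0.07 and then 0.21, without reaching 1.5-fold at either time.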

How the data were processed

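Bulk RNA-seq was made from poly-A selected RNA of 4 colonoid cultures, 1 library for each combination of treatment and time. The authors deposited counts per gene without normalisation. These are whole numbers rounded from estimates, since transcripts were quantified with kallisto (0.44.0 on GRCm38.p6 in the submitters' processing notes) and summed to genes with tximport, and whether strand was used is not given in the sources used here. Transcripts of near-identical genes may have shared reads.

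Following the study's methods, a gene was kept if it exceeded 10 counts in 2 or more libraries. Size factors came from DESeq2 1.42.0 and TMM factors from edgeR 4.0.16 (R 4.3.3). Python 3.11.15 was used for all else, with scipy 1.17.1 for intervals, pandas 2.3.3 and numpy 2.4.6 for tables, and matplotlib 3.10.9 for plots. Intervals were exact Clopper-Pearson intervals on pairs of counts, and normal intervals on the log scale for differences between times. Without molecular identifiers, reads of 1 molecule may be counted repeatedly, and both the intervals and the 3-count floor therefore describe counting error alone. Positions and lengths came from GENCODE M21 (GRCm38). The steps were tested on simulated counts that held counting error only, so that test does not bear on variation between cultures.

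The genes, lists and threshold of 1.5-fold were chosen with earlier results of these data known. Named were the 7 genes, the rest of the family, up to 4 members per list with the largest change and a mean of at least 100 normalised counts, marker genes of cells that also express a member, and the nearest genes by profile (5 for *Car1*, 3 for the others, some given by the nearest only). *Lypd8*, *Krt20*, *Guca2a*, *Ceacam1*, *Gata4*, *Ldha*, *Slc2a1*, *Slc9a2* and *Atp12a* were named outside this rule, after their values were seen. With *Apoa4*, *Fabp6* and *Lct*, also outside it, the small intestinal list was given in full. Alternatives were TMM and total count scaling, scaling without mitochondrial genes, a pseudocount of 5, a 2-fold threshold, other count filters and other lengths. Mitochondrial genes took 14.1% to 18.4% of counts. Results for a further gene of the lists are not reported here.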

Additional observations from a re-analysis of the deposited data

Results flagged for a closer look

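*Car1* and *Car4* were flagged because they were higher with butyrate at 48 h and lower with it at 72 h, with the counting interval of each change on its own side of 0. By any amount, 18.4% of all genes were higher at 48 h and lower at 72 h, so the direction alone is not particular to these genes. The change at 72 h minus that at 48 h was −2.02 on the log2 scale for *Car1* and −2.26 for *Car4*. *Car1* had been chosen for this pattern. With 1 library per condition the difference between the times was not tested against replicates, and time and culture cannot be told apart.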

How the results depend on the processing

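No analysis paired by replicate was possible because a single library stands for every condition, and leaving out a library could not be done either. The log2 values of the 7 genes were recomputed 140 times under other scalings and a pseudocount of 5. They stayed inside the interval of the reported value in 132 cases, left it without a change of sign in 7, and changed sign in 1. All of the latter 2 kinds arose under total count scaling, which moved the median of all genes by 0.01 and 0.05 for butyrate over untreated at 48 h and 72 h, and by −0.08 and −0.03 over time without and with butyrate. Under it *Car1* was −0.83 for butyrate over untreated at 72 h, 0.69 over time untreated, −1.28 over time with butyrate and −1.97 for the difference between the times, and *Car8* at 48 h became 0.0045. With a 2-fold threshold, 3 of the 7 genes were higher with butyrate at 48 h, without *Car2*, 0 were lower with butyrate at 72 h, 0 were higher over time untreated and 2 were lower over time with butyrate, as against 4, 1, 1 and 4. The shares of all genes at 2-fold, in the same order, were 6.94%, 3.78%, 2.66% and 4.95%. Counts over all genes moved by more than 1.5 times with the threshold and the filter. The filters also changed the number of genes tested. It was 13979 as reported, 11650 with a mean of at least 50 normalised counts and 21238 with any count. As shares of these, 13.1%, 8.94% and 21.0% were higher with butyrate at 48 h. Higher and lower with butyrate at 48 h were 1837 and 1244 genes as reported, 970 and 430 at 2-fold, 1042 and 749 with a mean of at least 50 normalised counts, and 4462 and 3162 when any gene with a count was included. At 72 h these numbers were 1328 and 1192 as reported, and 633 and 529, 685 and 598, and 3349 and 3652 under the same settings. Over time untreated they were 953 and 723, and 372 and 255, 359 and 387, and 3269 and 2670. Over time with butyrate they were 1351 and 1663, and 513 and 692, 772 and 984, and 3335 and 4369. By the longest transcript *Car12* ranked 2310 instead of 3503. Depth limits *Car4* most among the 7 genes.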
